A study of Homo sapiens with 9 samples.

Results

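The 10 genes described here make, control and break down polyamines: ODC1, AMD1, SRM and SMS in synthesis, OAZ1, OAZ2 and AZIN1 in control, and SAT1, SMOX and PAOX in breakdown. They were chosen by function around ODC1, and ODC1 itself was chosen on these libraries, because its counts differed between cells given wild-type GRP78 and cells given GRP78 with a mutant nuclear localization signal. All 10 were matched by symbol among the 61544 genes counted, and 9 of them had enough reads to be tested.

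Polyamines are small, positively charged molecules that bind RNA and DNA and that dividing cells need. ODC1 (ornithine decarboxylase) turns ornithine into putrescine, and SRM and SMS then add aminopropyl groups, which AMD1 supplies, to give spermidine and spermine. Cells hold the pathway in check largely after transcription: polyamines raise the translation of antizyme, antizyme sends the ODC1 protein to the proteasome, and antizyme inhibitor releases it. ODC1 is also a textbook target of the transcription factor MYC, and its activity is often high in tumours.

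The RNA came from H1975, an epithelial lung adenocarcinoma line. All cells, the controls included, first received si78. This siRNA targets the 3′ untranslated region of HSPA5, which encodes GRP78, a chaperone of the endoplasmic reticulum. They were then transfected with the empty plasmid pcDNA3 (Vector), with a plasmid for FLAG-tagged wild-type GRP78, F-78(WT), or with F-78(NLS Mut), in which lysines of the nuclear localization signal are replaced by alanine. These groups are called Vector, WT and NLS Mut, with 3 libraries each, and no cells lacking si78 are analysed here. The transfections were transient, so a library can hold cells with and without plasmid, and nothing in the labels says whether replicates came from separate cultures, so that p-values measure only the spread between these libraries.

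Each library held 17671055 to 27476298 counted reads, and the tested polyamine genes drew from 646 reads (SMOX in NLS Mut replicate 1) to 11168 reads (OAZ1 in Vector replicate 2). HSPA5 lay at 359 to 391 CPM (the TMM-scaled count of a gene, set to the same read total in all libraries) in Vector, at 5031 to 6145 in WT and at 4765 to 5156 in NLS Mut. Both plasmid groups therefore lay far above Vector, whereas the depletion by si78 could not be checked without untreated cells. The mean of HSPA5 was higher in WT than in NLS Mut, by 0.19 on the log2 scale (SE 0.05, adjusted p = 0.0795, edgeR), though the libraries overlapped. That difference was not called here but was in 9 of 19 alternative analyses. What part it has in differences between WT and NLS Mut was not tested. The 7 epithelial markers were present at 21.5 to 1745 CPM. The 4 blood cell markers summed to at most 2.33 CPM in a library, with CD3E and LYZ at 0 throughout. The 3 endothelial markers (PECAM1, CDH5 and VWF) summed to 5.29 to 8.05 CPM in a library. The means of all 7 epithelial markers were lower in NLS Mut than in Vector (median log2 difference -0.15). Of these CDH1 was called (-0.25, adjusted p = 0.0437, edgeR), where 0.793% of all tested genes were called. Only in CDH1 did Vector replicate 1 lie above every NLS Mut library. With WT against Vector 5 markers were higher and 2 lower (median 0.02), and 0 were called, against 0.558% of all tested genes. CDH1 and KRT19 were also called between WT and NLS Mut (0.27 and 0.23), against 0.504%. The 7 epithelial markers summed to 4472 to 5138 CPM in Vector, 4799 to 4876 in WT and 4380 to 4582 in NLS Mut. The part of this sum in the results on polyamine genes was not tested. Vector replicates 2 and 3 stood apart from Vector replicate 1 and from all WT and NLS Mut libraries in their trend with GC. For each rise of 10 points in a gene's GC percentage, its log2 ratio to the average library shifted by -0.04 in Vector replicate 1, and by 0.10 and 0.11 in replicates 2 and 3. This shift ranged from -0.08 to 0.03 in the WT libraries and from -0.04 to -0.02 in the NLS Mut libraries. A fit without Vector replicate 1 therefore compares with Vector replicates 2 and 3 alone.

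Since MYC and MAX bind the hexamer CACGTG, the promoters of the polyamine genes were searched for it on both strands, which read alike. RefSeq windows (GRCh38.p14) of 250 bases before to 50 bases after a start were found for 7 of the 10 genes, all but AZIN1, SMOX and PAOX. The hexamer stood in windows of 2 of these 7 genes, ODC1 and SRM, and in those of 8.77% of all 27305 genes with such windows (7.26% of 35116 windows). The stretches before the downstream start of ODC1 (chr2:10448013-10448120, minus strand) and the start of SRM (chr1:11060025-11060268, minus strand) are shown because they hold it, in capitals. The ODC1 stretch lies inside the annotated gene. The stretch of AMD1 (chr6:110874535-110874769, plus strand) is shown because AMD1 was the member called against Vector. All run from 5′ to 3′ and leave out annotated exons.
ODC1: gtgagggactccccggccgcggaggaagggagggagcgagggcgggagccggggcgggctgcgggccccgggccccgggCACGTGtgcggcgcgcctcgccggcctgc
SRM: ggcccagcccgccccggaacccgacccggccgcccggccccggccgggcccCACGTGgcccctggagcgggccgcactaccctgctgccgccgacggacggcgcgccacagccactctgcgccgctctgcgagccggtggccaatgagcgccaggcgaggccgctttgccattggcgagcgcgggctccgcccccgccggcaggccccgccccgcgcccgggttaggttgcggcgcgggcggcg
AMD1: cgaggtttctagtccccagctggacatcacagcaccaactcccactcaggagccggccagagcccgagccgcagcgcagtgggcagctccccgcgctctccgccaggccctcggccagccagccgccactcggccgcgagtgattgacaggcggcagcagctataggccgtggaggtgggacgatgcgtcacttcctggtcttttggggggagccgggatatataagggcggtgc

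In ODC1 the printed match began 29 bases before the downstream of its annotated starts, a second match began 6 bases after that start, and the window of the upstream start held none. In SRM the match began 199 bases before the start. A match of these letters is a description of the sequence and shows no binding.

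Per kilobase of exon, which allows genes to be compared, SMS was the most abundant of the 10 genes, with a mean of 139.6 CPM per kilobase over the 9 libraries, followed by OAZ1 at 115. ODC1 (85.3) and SRM (79.1) came next, and this pair was not separated, since SRM lay slightly above ODC1 in WT (75.04 against 74.9). AZIN1 followed at 33.5, and AMD1 (20.9) and SAT1 (20.7) were again not separated, SAT1 being higher in Vector (23.0 against 19.2) and AMD1 in WT and NLS Mut. SMOX lay at 13.2 and OAZ2 at 6.12. PAOX, the peroxisomal polyamine oxidase, had 1 to 15 reads in a library, 64 in all, and was not tested. The lengths are those of all annotated exons of a gene together, so a gene with long, little-used exons is ranked too low.

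**Figure D1:**
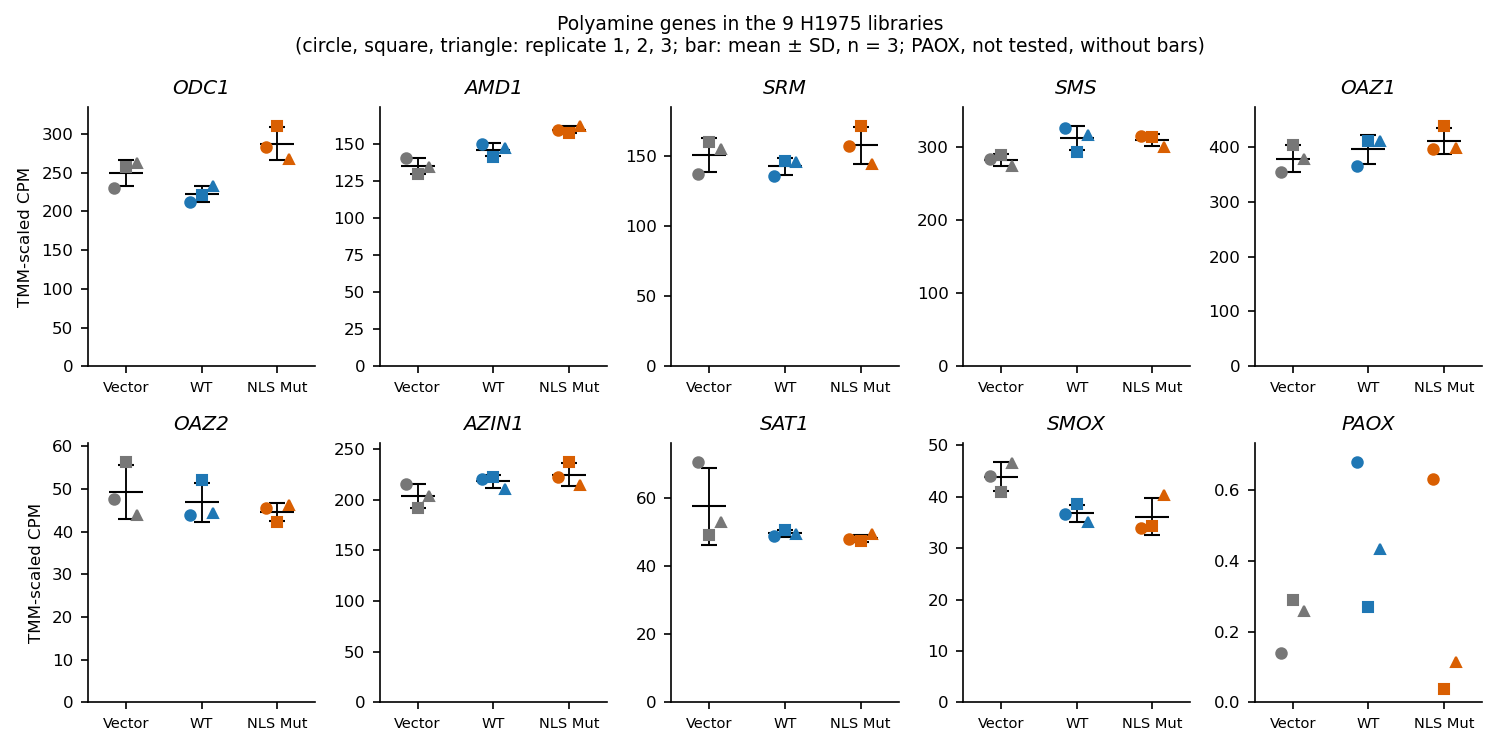
TMM-scaled CPM (y axis, from 0, a scale for each gene) of the 10 polyamine genes in the 3 Vector, 3 WT and 3 NLS Mut libraries, 1 point per library. Bars give the mean and SD of 3 libraries and are left out for PAOX, which had at most 15 reads in a library. ODC1 is highest in the 3 NLS Mut libraries, at 268 to 310 CPM, and SAT1 is high in 1 Vector library, at 70.4 CPM.

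ODC1 (ENSG00000115758.13; chromosome 2, 10439968 to 10448504, minus strand, GRCh38) lay at 230.5, 257 and 262 CPM in Vector replicates 1, 2 and 3, at 213, 221 and 233 in WT and at 283, 310 and 268 in NLS Mut. The 3 NLS Mut libraries lay above all others, and the WT libraries lay below the Vector libraries except that WT replicate 3 (233) exceeded Vector replicate 1 (230.5). The means were 250 ± 16.9, 222 ± 10.3 and 287 ± 21.2 CPM (SD, n = 3 each). Between WT and NLS Mut, the contrast on which ODC1 was chosen, its log2 difference was -0.37 (SE 0.06), given here as a description. It was -0.31 without NLS Mut replicate 2, the library with the highest level, and -0.41 without NLS Mut replicate 3. In bulk RNA a lower level per cell cannot be told apart from fewer cells that express the gene.

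Against Vector, ODC1 lay on either side: its log2 difference was -0.17 with WT (SE 0.06, 95% interval -0.30 to -0.04) and 0.20 with NLS Mut (SE 0.06, interval 0.07 to 0.33). Neither was called by edgeR's quasi-likelihood test, with adjusted p = 0.26 and 0.14. Both comparisons use the same 3 Vector libraries, and the WT and NLS Mut libraries are those on which ODC1 was chosen, so neither is independent of that choice. With NLS Mut the difference passed the threshold when GC content and gene length were corrected for (0.24, adjusted p = 0.00936, edgeR) and with DESeq2 (0.20, adjusted p = 0.0491), with adjusted p from 0.00524 to 0.636 over 19 alternatives. With WT it passed only without Vector replicate 1 (-0.23, adjusted p = 0.00999, edgeR; 0.00999 to 0.721 over 19 alternatives).

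AMD1 (ENSG00000123505.19; chromosome 6, 110874770 to 110895713, plus strand), the enzyme that decarboxylates S-adenosylmethionine to the aminopropyl donor, was the member called against Vector. It lay at 141, 130 and 134 CPM in Vector, at 150, 141 and 147 in WT and at 159, 157 and 162 in NLS Mut. The NLS Mut libraries all lay above the WT libraries and these all above the Vector libraries, although WT replicate 2 (140.97) barely exceeded Vector replicate 1 (140.53). AMD1 rose in NLS Mut by 0.24 on the log2 scale (SE 0.06, interval 0.12 to 0.37, adjusted p = 0.049, edgeR), and with WT the difference was 0.12 (SE 0.06, interval -0.01 to 0.24, adjusted p = 0.47, edgeR).
The call in NLS Mut stood at the threshold. It was kept in 4 of 19 alternatives, among them DESeq2 (adjusted p = 0.00208), and lost in the others, up to an adjusted p of 0.286 (edgeR). The difference was 0.16 with the correction for GC content and length, AMD1 being the member with the lowest GC content (37.7%). It was 0.27, and called, without Vector replicate 1, and 0.21 to 0.25, and not called, without any one of the other 8 libraries.

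SRM, spermidine synthase, resembled ODC1 in its order of groups but with wider spread. It lay at 137, 160 and 155 CPM in Vector, at 135, 146 and 145 in WT and at 157, 171 and 144 in NLS Mut, and the groups overlapped in every comparison. Its log2 differences were -0.08 (SE 0.07) with WT and 0.06 (SE 0.07) with NLS Mut against Vector, and -0.14 between WT and NLS Mut. SRM had the highest GC content of the 10 genes (63.7%), and with the correction for GC content and length its difference against Vector was 0.10 with WT and 0.22 with NLS Mut, of which the latter was called (adjusted p = 0.0376, edgeR; 0.0289 to 0.992 over 19 alternatives).

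SMS, spermine synthase, lay at 283, 290 and 274 CPM in Vector, at 326, 294 and 317 in WT and at 315, 314 and 299.9 in NLS Mut. All 6 libraries with GRP78 plasmids lay above all 3 Vector libraries. The log2 differences against Vector were 0.15 with WT (SE 0.06, interval 0.03 to 0.26) and 0.13 with NLS Mut (SE 0.06, interval 0.02 to 0.25), with adjusted p = 0.27 and 0.30 (edgeR), so neither was called. SMS differed by 0.01 (SE 0.06, interval -0.10 to 0.12) between WT and NLS Mut, where ODC1 differed by -0.37.

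The control genes showed no called difference. OAZ1, the main antizyme, lay at 354 to 404 CPM in Vector, 365 to 411 in WT and 395 to 437 in NLS Mut, and its log2 difference against Vector was 0.06 with WT and 0.11 with NLS Mut (SE 0.06 each). Like SRM it is rich in GC (61.2%), and with the correction for GC content and length it was called in NLS Mut (0.24, adjusted p = 0.00636, edgeR; 0.00375 to 0.872 over 19 alternatives). OAZ2, a second antizyme, had differences of -0.07 and -0.14 (SE 0.09 each). AZIN1, the antizyme inhibitor, had differences of 0.10 and 0.14 (SE 0.06 each), with 192 to 215 CPM in Vector, 211 to 222 in WT and 214 to 237 in NLS Mut, so that its groups overlapped.

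Both tested breakdown genes had their highest values in Vector. SMOX, spermine oxidase, lay at 44.1, 41.0 and 46.6 CPM in Vector, at 36.6, 38.6 and 35.2 in WT and at 33.9, 34.2 and 40.3 in NLS Mut. Every Vector library lay above every library with GRP78 plasmid, the closest being Vector replicate 2 (41.0) and NLS Mut replicate 3 (40.3). The log2 differences of -0.25 with WT and -0.28 with NLS Mut (SE 0.09 each) had adjusted p = 0.24 and 0.17 (edgeR) and were not called, and they were -0.14 and -0.16 with the correction for GC content and length.
SAT1, which acetylates spermidine and spermine for export or oxidation, lay at 70.4, 49.1 and 52.8 CPM in Vector, at 48.6, 50.6 and 49.2 in WT and at 47.9, 47.1 and 49.2 in NLS Mut. Its log2 differences of -0.21 and -0.25 (SE 0.10 each, adjusted p = 0.39 and 0.26, edgeR) rested on Vector replicate 1, without which they were -0.04 and -0.09.

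Counted over the 9 tested genes, 0 were called between WT and Vector, where 0.558% of all 18653 tested genes were called by edgeR. At an unadjusted p under 0.05 there were 4 (ODC1, SMS, SAT1 and SMOX), against 11.7% of all tested genes, and DESeq2 called 0, against 2.15% of the genes to which it gave an adjusted p. Without ODC1, which was chosen on the WT and NLS Mut libraries, 3 of 8 had such an unadjusted p. Between NLS Mut and Vector, 1 was called, AMD1, against 0.793% of all tested genes, and 6 had an unadjusted p under 0.05 (ODC1, AMD1, SMS, AZIN1, SAT1 and SMOX), against 12.2%. DESeq2 called 2, ODC1 and AMD1, against 3.77%. Without ODC1, 5 of 8 had an unadjusted p under 0.05, and edgeR and DESeq2 each called 1, AMD1. The correction for GC content and length called 3, ODC1, SRM and OAZ1, against 1.46%, so the called members changed with that correction. Without Vector replicate 1, WT against Vector called 1 member, ODC1, against 6.33% of all genes. Between WT and NLS Mut the 1 gene called was ODC1, which was chosen on that contrast, where 0.504% of all genes were called.

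The median absolute log2 difference of the 9 genes was 0.12 with WT and 0.14 with NLS Mut against Vector, where it was 0.14 for all tested genes in each. Between WT and NLS Mut it was 0.05 for the 9 genes and 0.14 for all genes. All tested genes include those with few reads and wide spread, such as MYCL (1.31 to 3.63 CPM, SE 0.35 between WT and NLS Mut). The medians were not matched for level, so they do not show that the 9 genes moved less than others. Groups did not overlap for 3 members between WT and Vector (AMD1, SMS and SMOX; 13.1% of all tested genes), for 4 between NLS Mut and Vector (ODC1, AMD1, SMS and SMOX; 18.1%) and for 2 between WT and NLS Mut (ODC1 and AMD1; 17.7%). Without ODC1, which was chosen on the WT and NLS Mut libraries, these counts were 3, 3 and 1 of 8 tested members.

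**Figure D2:**
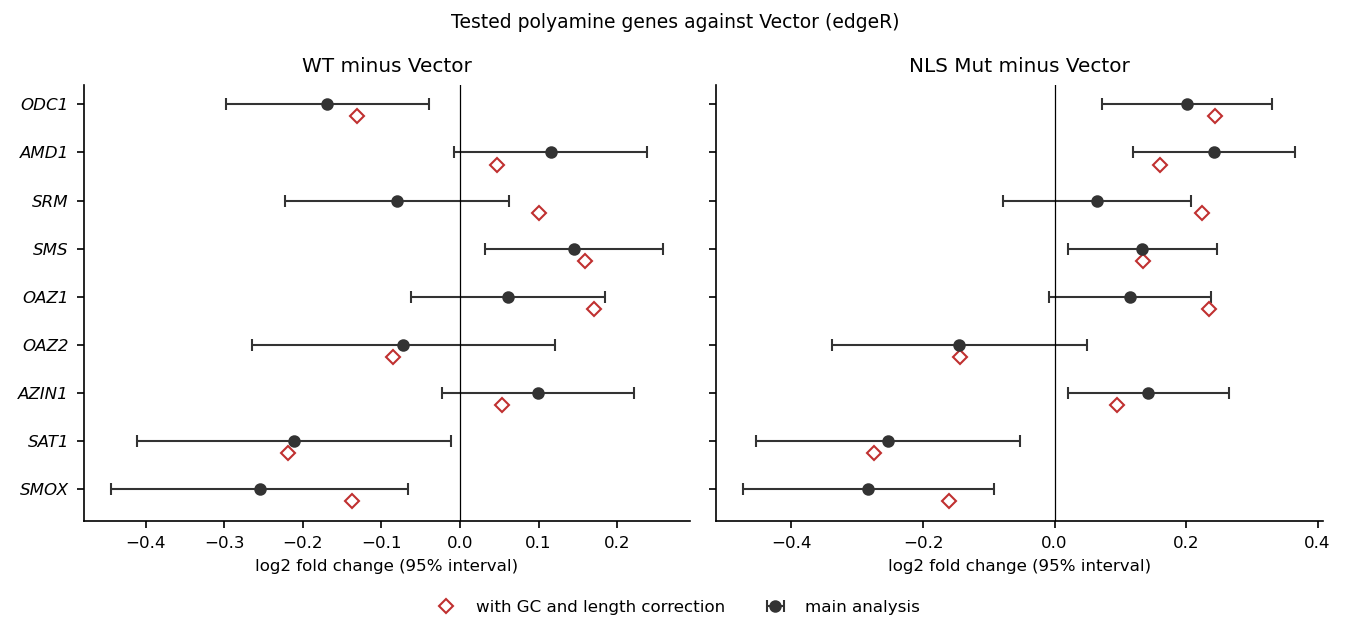
Log2 difference (x axis) of the 9 tested polyamine genes in WT (left) and NLS Mut (right) against the same Vector libraries, with points and 95% intervals from edgeR and open diamonds for the values with a correction for GC content and length. ODC1 lies at -0.17 on the left and 0.20 on the right, and SRM moves from -0.08 to 0.10 on the left with the correction.

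Ratios of counts within a library do not depend on its scaling. They are not corrected for the trend with GC, which differed between the Vector libraries. The paired genes differ in GC content (AMD1 37.7%, AZIN1 42.3%, ODC1 51.2% and OAZ1 61.2%), and the part of that trend in the ratios was not tested. The ratio of ODC1 to its inhibitor OAZ1 was 0.651, 0.636 and 0.694 in Vector, 0.583, 0.5395 and 0.567 in WT and 0.717, 0.709 and 0.675 in NLS Mut. The WT libraries lay below all Vector libraries, and the NLS Mut libraries overlapped them. The ratio of ODC1 to AZIN1 was 1.23 ± 0.143 in Vector, 1.02 ± 0.0744 in WT and 1.28 ± 0.0294 in NLS Mut (SD, n = 3 each), and Vector replicate 1 (1.07) lay within the WT range. The ratio of AMD1 to ODC1 was 0.610, 0.505 and 0.512 in Vector, 0.704, 0.637 and 0.632 in WT and 0.561, 0.507 and 0.604 in NLS Mut. All WT libraries lay above all others in this ratio. Each of these ratios holds ODC1 and so carries the choice made on WT and NLS Mut, and they are given without a test. The counts are not corrected for length, so a ratio compares libraries and not the abundance of the 2 transcripts, and no protein or polyamine was measured.

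**Figure D3:**
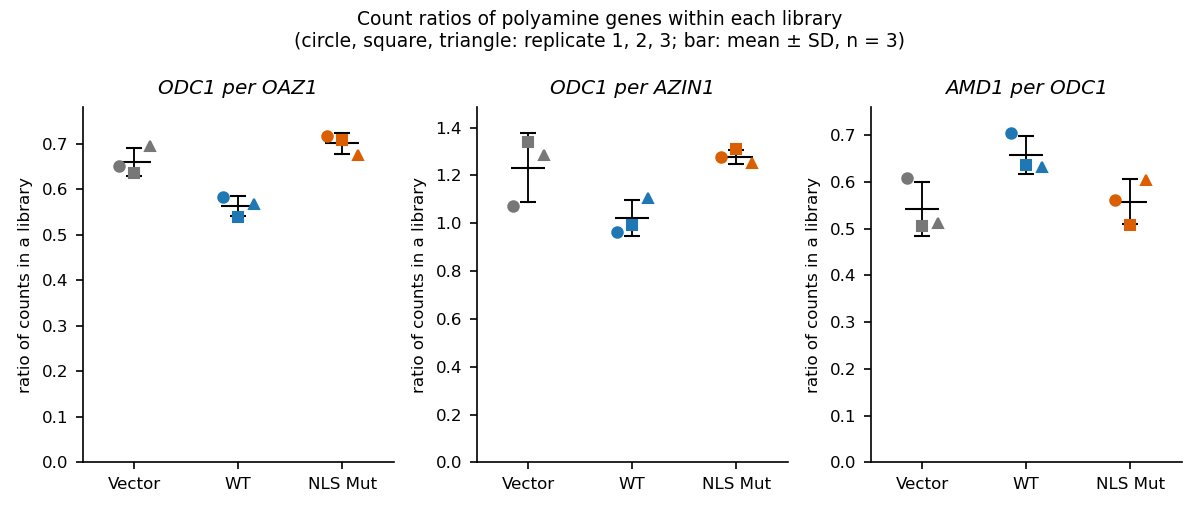
Ratio of counts of ODC1 to OAZ1, ODC1 to AZIN1 and AMD1 to ODC1 (y axes, from 0) in each of the 9 libraries, with the mean and SD of 3 libraries per group. In the left panel the WT libraries lie at 0.5395 to 0.583, below the Vector libraries at 0.636 to 0.694.

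The wider pathway was followed in 40 further genes chosen by function, of which 34 were tested: hypusination of EIF5A, other control and breakdown genes, ornithine and arginine metabolism, the methionine cycle and salvage, and transport. Of the 34, 1 was called higher and 2 lower with WT against Vector, and 2 higher and 0 lower with NLS Mut against Vector, where edgeR called 0.558% and 0.793% of all genes. Their median log2 difference was 0.03 with WT and 0.04 with NLS Mut, beside -0.00228 and -0.00174 over all tested genes. None of the 8 tested genes of methionine and salvage and none of the 5 of ornithine and arginine was called by edgeR or DESeq2 against Vector. At an unadjusted p under 0.05 there were 0 and 1 of them with WT and 0 and 2 with NLS Mut. Among the 12 tested genes of transport there were 4 with WT and 3 with NLS Mut. Over all 34 there were 6 in each comparison, against 11.7% and 12.2% of all tested genes. The genes called by edgeR were 3 of transport and 1 of hypusination. DESeq2 called 4 of the wider list with WT against Vector, 3 of transport and 1 of hypusination, and 2 of transport with NLS Mut. It called 2.15% and 3.77% of the genes to which it gave an adjusted p.

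CAV1, caveolin-1, which has been tied to polyamine uptake by endocytosis, lay at 557, 520 and 520 CPM in Vector, at 654, 644 and 659 in WT and at 615, 620 and 625 in NLS Mut. All 6 libraries with GRP78 plasmids lay above all 3 Vector libraries. It rose by 0.29 with WT (SE 0.05, adjusted p = 0.00198) and by 0.22 with NLS Mut (SE 0.05, adjusted p = 0.0212), both by edgeR. The call with WT was kept in all 19 alternatives (0.27 to 0.33), and the call with NLS Mut was lost without Vector replicate 2 or 3 or any one NLS Mut library (0.20 to 0.22).

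ATP13A3, a P-type ATPase of polyamine uptake, lay at 304, 260 and 253 CPM in Vector, at 290, 288 and 296 in WT and at 332, 335 and 325 in NLS Mut. The NLS Mut libraries lay above all others. It rose with NLS Mut by 0.28 (SE 0.06, adjusted p = 0.0202, edgeR), a call lost without Vector replicate 2 or 3 or any one NLS Mut library (0.22 to 0.29), and had a difference of 0.10 with WT (SE 0.06, not called). The latter was 0.18, and called, without Vector replicate 1 (adjusted p = 0.0194, edgeR; 0.0194 to 0.957 over 19 alternatives), 0.07 without Vector replicate 2, 0.04 without Vector replicate 3 and 0.02 with the correction for GC content and length.

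SLC3A2, the heavy chain of amino acid transporters that has also been linked to polyamine export, lay at 369.5, 404 and 439 CPM in Vector, at 302, 361 and 343 in WT and at 431, 435 and 413 in NLS Mut. All WT libraries lay below all others. It fell with WT by 0.27 against Vector (SE 0.06, adjusted p = 0.0456, edgeR), a call lost without Vector replicate 2 or 3, WT replicate 1 or 3 or any one NLS Mut library (-0.28 to -0.20). Between WT and NLS Mut its difference was -0.35 (SE 0.06), and it was the 1 gene of the 34 called there, where 0.504% of all genes were called. That call was lost without WT replicate 1 (-0.27), NLS Mut replicate 1 (-0.33) or NLS Mut replicate 2 (-0.33). A heat map of the study labels SLC3A2, LRP1 and MYC from these WT and NLS Mut libraries, so none of these genes is independent support.

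DOHH, the hydroxylase that completes hypusine, the spermidine-derived residue of EIF5A, lay at 27.7, 35.2 and 37.1 CPM in Vector, at 24.4, 23.5 and 21.6 in WT and at 30.7, 28.0 and 26.3 in NLS Mut. The WT libraries lay below all others. It fell with WT by 0.53 against Vector (SE 0.11, adjusted p = 0.0206, edgeR), and its difference was -0.24 with NLS Mut (SE 0.11, not called). With NLS Mut it was -0.04 with the correction for GC content and length, and -0.36, and called, without Vector replicate 1 (adjusted p = 0.042, edgeR; 0.042 to 0.93 over 19 alternatives). With the correction for GC content and length the difference with WT was -0.28 and was no longer called (adjusted p = 0.203, edgeR; 1.95e-04 to 0.213 over 19 alternatives), and it was also not called without Vector replicate 2 or 3 or WT replicate 1 or 3 (-0.56 to -0.44). EIF5A itself lay at -0.16 with WT and 0.08 with NLS Mut (SE 0.08 each, not called).

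**Figure D4:**
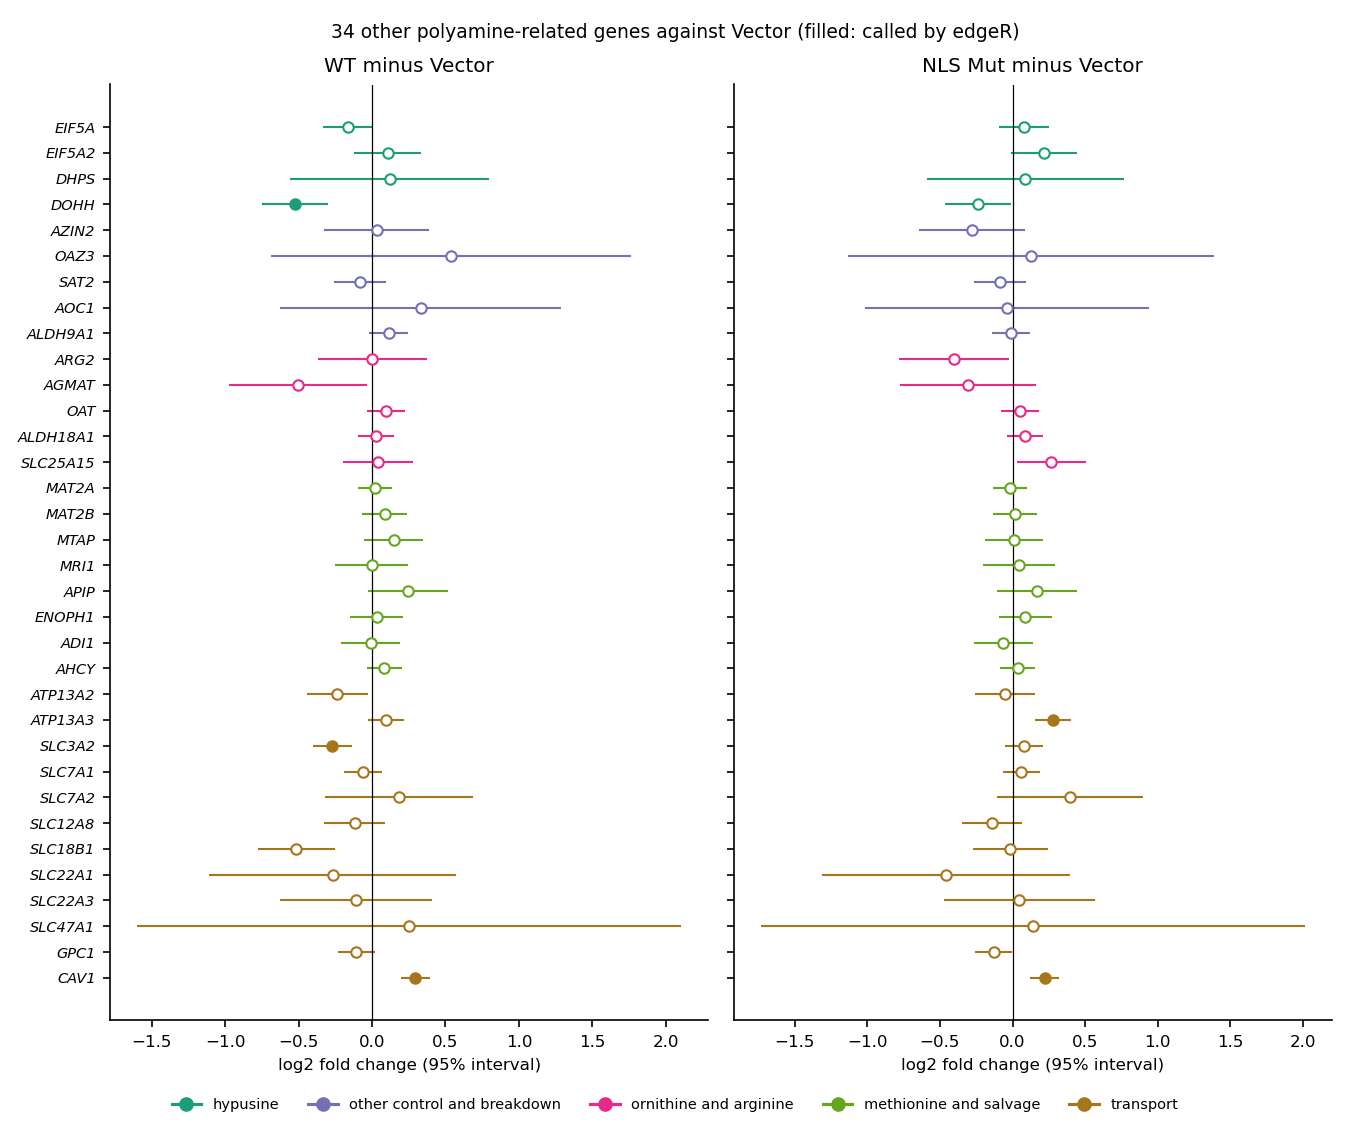
Log2 difference with 95% interval (x axis) of the 34 tested genes of the wider polyamine list in WT (left) and NLS Mut (right) against the same Vector libraries, coloured by role, with filled points for genes called by edgeR. CAV1 is filled on both sides (0.29 and 0.22), DOHH (-0.53) and SLC3A2 (-0.27) on the left and ATP13A3 (0.28) on the right.

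Of the known transcriptional regulators of ODC1, MYC lay at 603, 719 and 749 CPM in Vector, at 431, 537 and 502 in WT and at 714, 731 and 678 in NLS Mut. All WT libraries lay below all others. MYC fell with WT by 0.49 against Vector (SE 0.07, adjusted p = 0.000242, edgeR), which was kept in all 19 alternatives (-0.58 to -0.41), and its difference with NLS Mut was 0.04 (SE 0.07, not called). The difference between WT and NLS Mut was -0.53, beside -0.37 for ODC1.
MAX, the partner with which MYC binds DNA, had differences of -0.23 with WT and -0.02 with NLS Mut against Vector (SE 0.08 each, not called). MYCL lay at 1.31 to 3.63 CPM and MYCN at 0 in all 9 libraries.
Vector and NLS Mut thus overlapped in MYC, while ODC1 was higher in every NLS Mut library than in every Vector library. Whether the level of MYC has a part in that of ODC1 was not tested.

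The genes whose log2 CPM followed ODC1 most closely over the 9 libraries, among 10065 tested genes that averaged 10 CPM or more, were NOLC1, ARMC6, POLR2D, RND3 and ECSIT, with Pearson r of 0.97, 0.97, 0.96, 0.95 and 0.95. NOLC1, a nucleolar phosphoprotein, had means of 363 ± 14.4 CPM in Vector, 338 ± 9.06 in WT and 391 ± 22.1 in NLS Mut (SD, n = 3 each), the order seen in ODC1. POLR2D, a subunit of RNA polymerase II, had 44.0 ± 1.84, 40.2 ± 1.49 and 48.1 ± 2.69 CPM. At the other end, LRP1, an endocytic receptor, had r = -0.98, with 279 ± 12.7 CPM in Vector, 318 ± 7.89 in WT and 244 ± 12.1 in NLS Mut.
Among the polyamine genes SRM was closest to ODC1 (r = 0.84, rank 129), followed by OAZ1 (0.55) and AMD1 (0.38), and SAT1 was farthest (-0.34). MYC had r = 0.85 (rank 107) and SLC3A2 r = 0.88 (rank 63). These correlations are descriptions over 9 libraries that share the 3 groups and the choice of ODC1, so differences between groups alone raise or lower them.

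**Figure D5:**
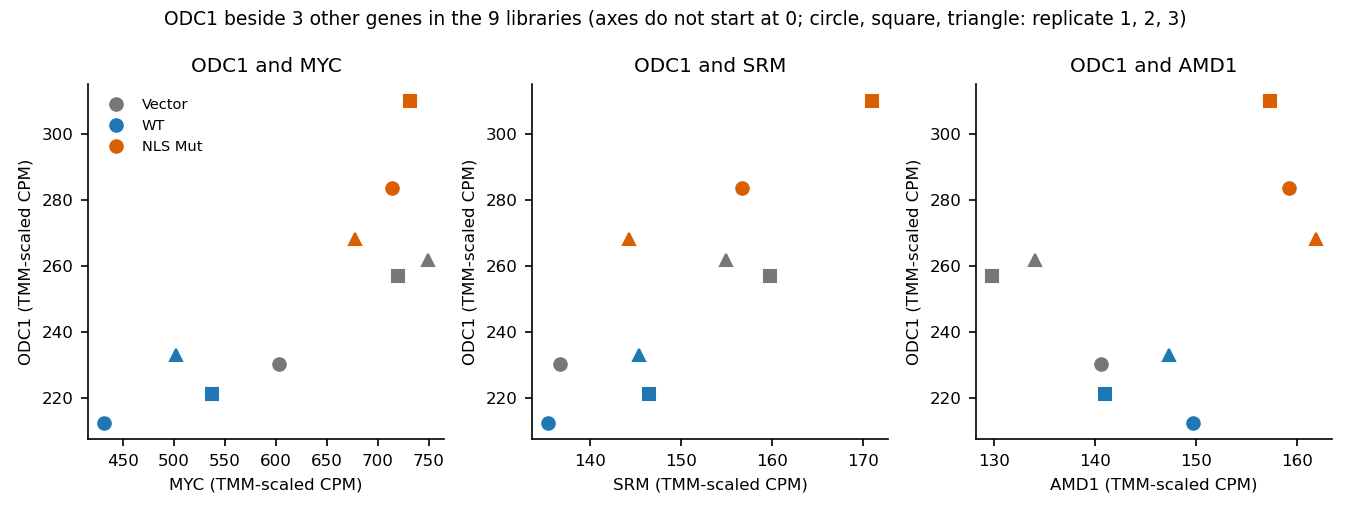
CPM of ODC1 (y axis) against that of MYC, SRM and AMD1 (x axes; no axis starts at 0) in the 9 libraries, coloured by group. The WT libraries lie low in both MYC (431 to 537) and ODC1 (213 to 233), and the NLS Mut and Vector libraries overlap in MYC but not in ODC1.

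The annotation held 9 pseudogenes named after members (4 of AMD1, 3 of SRM and 1 each of SMS and OAZ1), and none passed 0.370 CPM in a library. Reads that fit a gene and its copy equally well are not in the counts of either, so how many were shared was not measured. The counts used take no account of strand. Genes on the opposite strand overlap OAZ1 (JSRP1, at most 13.6 CPM), AZIN1 (MAILR, at most 5.64 CPM) and OAZ2 (ENSG00000265967, at 0 CPM). On its own strand OAZ1 is also overlapped by ENSG00000273734, at 0 CPM. Reads that fall where these pairs overlap cannot be assigned to either gene, and how many there were was not measured. PAOX overlaps another gene on its own strand, at up to 1.99 CPM, above its own level.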

How the data were processed

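For each of 9 libraries the authors deposited the raw count of reads on every gene, not normalized, in the layout of STAR. STAR 2.7.9a, DESeq2 1.36.0 and GRCh38.p14 stand in the submitters' processing notes, and the annotation is not given in the sources used here. The unstranded count was used, and the 4 summary lines (27.6% to 30.7% of reads) were left out.

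Counts were scaled by TMM (factors 0.989 to 1.02), filtered with filterByExpr (18653 genes) and fitted over all 9 libraries with edgeR 4.0.16 in R 4.3.3. Adjustment was by Benjamini-Hochberg over all tested genes, with a threshold of 0.05. SEs are the absolute log2 difference over the square root of F, and intervals are not adjusted. The median biological coefficient of variation was 11.1%. Replicates differed by more than counting noise (chi-square per degree of freedom 3.55 to 12.7), so none was treated as a library deposited again. Symbols were matched for 61399 of 61544 genes. Coordinates, GC content and length came from GENCODE release 29 (GRCh38; 58342 genes matched), and promoters from RefSeq.

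The members, lists and tests were chosen with earlier results of these data known. Named are all members, genes of the wider list called by edgeR, MYC, MYCN, MYCL, MAX and HSPA5, the 5 genes most like ODC1 (log2 of CPM plus 0.5) and the least like it. EIF5A was named after its values were seen. Alternatives were DESeq2 1.42.0, its size factors, no TMM, no or a stricter filter, the sum of strand counts, a fit of only 2 groups, a replicate block, a loess correction (span 0.3) for GC content and length, and leaving out each library. The procedure was tested on simulated data.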

Additional observations from a re-analysis of the deposited data

How the results depend on the processing

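Of the counts, members called in NLS Mut against Vector moved from 1 to 0 with DESeq2 size factors, library size alone, no filter on low counts, the sum of strand counts or only the 2 groups compared, to 2 with DESeq2, and to 3 with the correction for GC content and length, alone or with the replicate block. The wider list moved from 3 to 1 in WT against Vector with only the 2 groups compared. In WT against NLS Mut it moved from 1 to 2 with only the 2 groups or DESeq2. It moved there to 4 with the GC and length correction, alone or with the block. The share of all genes called was not counted for these fits and comparisons. Leaving out each library gave 0 to 1 members in each of the 3 comparisons. For the wider list it gave 1 to 6 genes in WT against Vector, 0 to 4 in NLS Mut against Vector and 0 to 4 in WT against NLS Mut. The highest counts of the wider list came without Vector replicate 1. In that fit 6.33% of all genes were called in WT against Vector, beside 0.558% in the main fit. For the other comparisons and libraries left out, that share was not counted, so these counts are no result about the listed genes. The cause of the highest counts was not tested. Among the values of single genes, SRM in WT against Vector turned to 0.10 with the GC and length correction (0.10 with the block as well), MAX in NLS Mut to 0.00904 (0.00644) and MYCL in WT to -0.17 with the sum of strand counts. Without 1 library, differences near 0 changed sign for OAZ2 (-0.15 to 0.0396) and MYCL (-0.20 to 0.35) in WT against Vector, for SRM (-0.0067 to 0.12), MYC (-0.0604 to 0.0906) and MAX (-0.0866 to 0.0157) in NLS Mut against Vector, and for SMS (-0.0141 to 0.0619), OAZ1 (-0.0743 to 0.00751), OAZ2 (-0.00425 to 0.12), AZIN1 (-0.0691 to 0.00314) and SMOX (-0.00635 to 0.12) in WT against NLS Mut. None of these was called. Over all single-gene values, 879 kept direction and side of the threshold, 45 lost the call, 23 gained it and 22 changed direction.

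Deviations from the group means correlated at -0.04 to 0.32 between libraries of the same number and at -0.39 to 0.33 between others. The labels do not say whether the replicate numbers pair the samples, and these overlapping ranges cannot settle it. With the replicate block AMD1 in NLS Mut against Vector was 0.24 (adjusted p = 0.0345, edgeR; 0.00208 to 0.286 over 19 alternatives). In that fit the members called stayed at 0, 1 and 1, and the wider list gave 4, 2 and 1 calls. The share of all genes called with the block was not counted. With 3 libraries a group the SEs of the tested members were 0.06 to 0.10, and a difference that was not called is not shown to be 0.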
